A study of Mus musculus with 6 samples.

Results

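The 826 cells described here are those that the authors' deposited cell table places in cluster 4, out of 16822 cells in the table, and the working name of the cluster is granulocyte-monocyte primed. Members were found by joining the cluster column to the deposited count matrices by library and barcode. The cells were hematopoietic stem and progenitor cells (HSPCs) of C57BL/6J (CD45.1) female mice aged 8 to 12 weeks that had received no conditioning. AML mice were injected with 1000000 C1498 cells (CD45.2), a mouse leukemia line that grows in this strain, and control mice were injected with PBS. Bone marrow from femur and tibia was taken at day 21, and CD45.1+ Lin- cKit+ Sca1+ cells were sorted for single-cell RNA sequencing on the 10x Chromium GEM V3 platform, which counts each captured molecule once through a unique molecular identifier (UMI). The model is a transplanted cell line in an intact host, so the cells analysed are host HSPCs that share their marrow with the leukemia.

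Granulocyte-monocyte progenitors are the stage of blood formation at which cells become committed to neutrophils or to monocytes. Cells entering the neutrophil line make primary granules first, filled with serine proteases and myeloperoxidase, while the granules of late neutrophils come afterwards. The monocyte line depends on the transcription factor IRF8 and on the receptor for the growth factor CSF1, and basophils and mast cells carry a separate set of proteases together with the high-affinity receptor for IgE.

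Cluster 4 held 197, 23 and 150 cells in the libraries PBS 1, 2 and 3 and 77 and 379 cells in AML 1 and 3. These were 2.88% (95% Clopper-Pearson interval 2.50 to 3.31), 2.46% (1.57 to 3.67) and 3.41% (2.89 to 3.99) of the table's cells in PBS and 11.1% (8.87 to 13.7) and 9.57% (8.67 to 10.5) in AML. The intervals cover counting error only, and the shares are given without a test, since genes that define the cluster differ between the groups. The library AML 2 has 17055 barcodes in its count matrix and 0 cells in the cell table, so it enters no comparison. No barcode of a cluster 4 cell occurs in cluster 4 of another library. AML 1 stands apart from the other libraries. Its cluster 4 cells held a median of 2387 UMIs against 6879, 14971 and 8330 in PBS and 10761 in AML 3, and its expression profile correlated at r = 0.757 to 0.865 with the other 4, which correlated at 0.884 to 0.966 among themselves across genes. For each named gene whose AML against PBS call was lost without AML 1, the value without it is given.

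The promoters of several leading genes of the cluster hold a short ETS family motif, GAGGAAGT, of the type that PU.1 binds. It was searched on both strands, in windows of 250 bases before to 50 bases after each RefSeq start site (GRCm38.p6), and was present in at least 1 promoter of 5 of the 17 leading genes that have one in the table (29.4%), compared with 3.69% of all 27025 genes counted in the same way and 3.20% of all 32851 promoters. It was also in 3 of the 12 genes higher in AML that have a promoter (25%) and in 1 of the 20 lower ones (5%). The 5 leading genes were Elane, Prtn3, Mpo, Atp8b4 and F13a1, the last with its only match 14 bases after a start site. The granule genes Ctsg and Ms4a3 were not among them. F13a1 is counted in both sets, and Elane and Prtn3 are neighbours on chromosome 10. The C/EBP palindrome TTGCGCAA was in 1 of the 17 leading genes and in 0.207% of all genes. The 3 primary granule genes below are shown because they share the first motif, and Isg15 because its promoter holds the interferon-stimulated response element core, GAAA followed by any 2 bases and GAAA, found in 3.44% of all promoters. Each line gives the 250 bases before the start site, 5′ to 3′ on the strand of the gene, with matches in capitals. In the Isg15 promoter 3 matches overlap one another. Counted by gene, this core was in 2 of the 12 genes higher in AML, 1 of the 20 lower ones, 0 of the 17 leading genes and 3.99% of all genes.
Elane, chr10:79886062-79886311, plus strand, match starting 85 bases before the start site: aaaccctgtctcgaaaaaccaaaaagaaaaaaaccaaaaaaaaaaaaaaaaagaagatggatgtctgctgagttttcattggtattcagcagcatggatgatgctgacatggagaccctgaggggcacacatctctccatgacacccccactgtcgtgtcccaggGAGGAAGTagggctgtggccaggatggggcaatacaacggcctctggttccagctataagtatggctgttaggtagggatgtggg
Prtn3, chr10:79879417-79879666, plus strand, match starting 95 bases before the start site: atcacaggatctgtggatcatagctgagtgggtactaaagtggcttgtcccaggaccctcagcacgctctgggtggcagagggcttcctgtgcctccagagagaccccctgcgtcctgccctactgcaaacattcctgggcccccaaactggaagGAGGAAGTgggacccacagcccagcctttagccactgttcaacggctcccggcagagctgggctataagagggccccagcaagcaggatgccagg
Mpo, chr11:87793534-87793783, plus strand, match starting 224 bases before the start site: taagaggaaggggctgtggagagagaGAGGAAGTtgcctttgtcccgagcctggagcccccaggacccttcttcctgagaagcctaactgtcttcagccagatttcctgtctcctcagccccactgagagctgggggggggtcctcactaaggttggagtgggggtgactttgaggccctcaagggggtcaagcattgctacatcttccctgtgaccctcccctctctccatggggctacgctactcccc
Isg15, chr4:156200819-156201068, minus strand, first match starting 78 bases before the start site: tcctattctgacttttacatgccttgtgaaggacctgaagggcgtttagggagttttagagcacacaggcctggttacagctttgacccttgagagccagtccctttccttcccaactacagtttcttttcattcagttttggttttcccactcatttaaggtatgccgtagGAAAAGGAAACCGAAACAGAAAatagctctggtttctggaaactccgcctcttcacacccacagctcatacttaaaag

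The genes that led cluster 4 were those of the primary granule and of the early monocyte. Levels are UMI counts of the cells summed within each library, scaled to a total of 1000000 UMIs (CPM). The cluster was drawn from the same data, so the difference of these genes from the other cells is a description and not a test. Elane, which encodes neutrophil elastase, stood at 873, 823 and 1969 CPM in PBS 1, 2 and 3 and at 954 and 929 CPM in AML 1 and 3, against 2.44, 1.19, 8.39, 46.5 and 16.2 CPM in the remaining cells of the same libraries. Its median log2 ratio over the 5 libraries was 7.71, the largest of the 1380 genes with a mean of 100 CPM or more in the cluster. All 5 libraries of cluster 4 lay far above all 5 sums of other cells for this gene. Of the 1380 genes, 535 were higher than in the other cells in all 5 libraries, 32 had a median log2 ratio of 1 or more and 6 of 3 or more.

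The granule proteases formed the most abundant group. Prtn3, proteinase 3, reached a mean of 3239 CPM in cluster 4 against 784 CPM in the other cells, with a median log2 ratio of 2.06. For Ctsg, cathepsin G, the means were 582 and 62.4 CPM (median log2 ratio 3.95), and for Mpo, the myeloperoxidase of the same granules, 856 and 110 CPM (3.24). Ms4a3, a membrane protein of granulocyte-monocyte progenitors, stood at 154.5 and 13.1 CPM (3.68). Prtn3 was thus high in absolute level but far less restricted than Elane: in cells thinned to 2000 UMIs, a step that puts all cells at 1 depth and leaves out 3 shallower cells of the cluster, at least 1 UMI of Prtn3 was found in 85.3% of cluster 4 cells and in 67.9% of cells of cluster 0, the largest cluster. The same shares were 33.0% and 0.676% for Elane and 55.3% and 3.19% for Ctsg. Without thinning they were 93.1% and 83.3% for Prtn3, 49.0% and 1.43% for Elane and 75.7% and 5.72% for Ctsg, at median depths of 8458 and 3740 UMIs. In the thinned cells of the small cluster 8, Prtn3 was found in 29.9%, Elane in 0.935% and Ctsg in 2.80%. These shares are of detection, and the part of free RNA in them was not tested.

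Monocyte genes made up the second group. F13a1, the A subunit of coagulation factor XIII and a gene of early monocytes, was at 104.5 CPM against 4.55 CPM in the other cells, with a median log2 ratio of 4.40. For Ly86, the secreted partner of the receptor CD180, the levels were 370 and 57.1 CPM (3.53), and for Irf8 they were 169 and 36.3 CPM (2.33). Ms4a6c stood at 373 and 69.4 CPM (2.94). The receptor gene Csf1r was low, at 14.1 CPM, but above the 3.29 CPM of the other cells. The set was completed by genes used in several myeloid lines: the adaptors Tyrobp (652 and 169 CPM) and Fcer1g (462 and 127 CPM), the protease inhibitors Slpi (242 and 34.0 CPM), Cst7 (135.5 and 44.5 CPM) and Cst3 (1363 and 513 CPM), the lectin receptor Clec12a (230.5 and 72.5 CPM), the lectin Lgals1 (428 and 79.3 CPM), the adaptor subunit Ap3s1 (370 and 76.6 CPM), the lipid transporter Atp8b4 (107 and 35.2 CPM), the metallothionein Mt1 (134 and 37.5 CPM) and the class II gene H2-Eb1 (114 and 16.7 CPM).

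**Figure D1:**
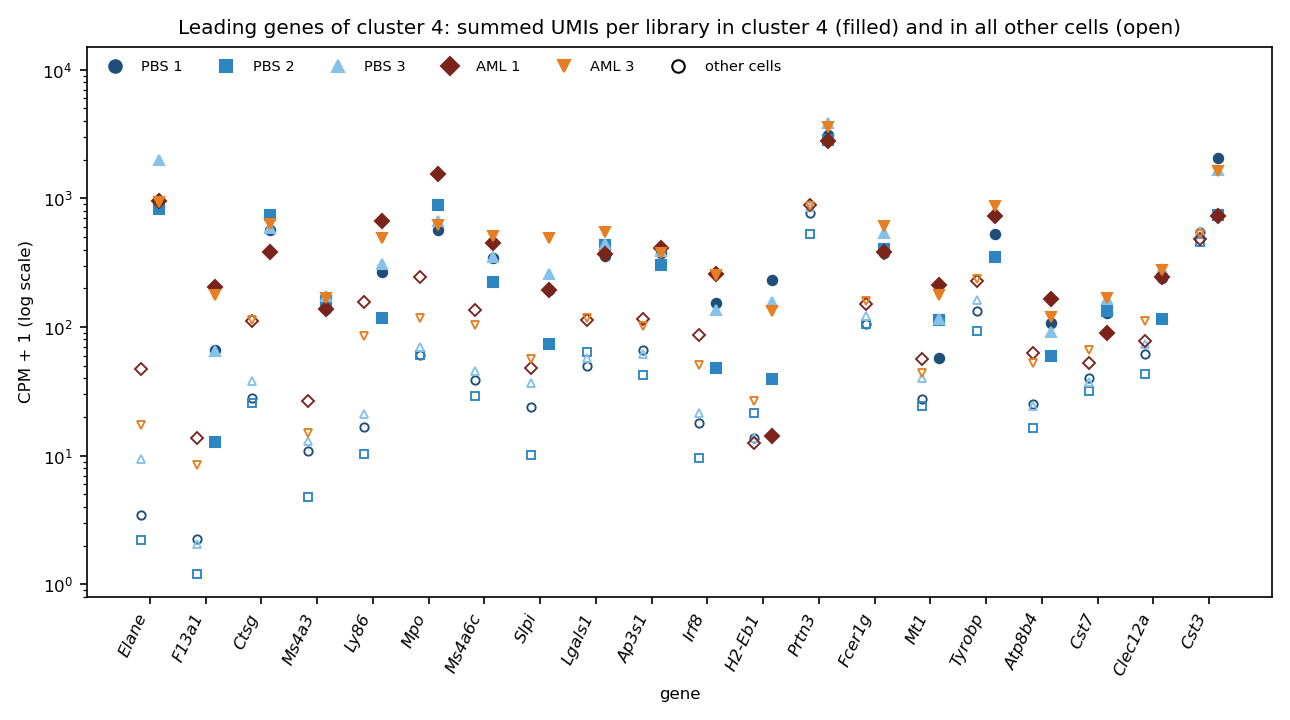
Level of the 20 leading genes of cluster 4 in each library, as CPM + 1 on a log scale, in the summed cluster 4 cells (filled symbols) and in the summed other cells of the same library (open symbols). Elane shows the widest gap, with means of 1110 CPM in cluster 4 and 15.0 CPM in the other cells, and H2-Eb1 the widest spread between libraries within cluster 4.

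Of the 6 markers behind the cluster's name, 5 were higher in cluster 4 in all 5 libraries. Besides Elane, Ctsg and F13a1 these were Hp, haptoglobin, with means of 77.6 and 1.96 CPM, and Ly6c2, the Ly6C antigen of monocytes, with 76.6 and 3.16 CPM. The remaining marker, Prss34, a basophil protease, had a mean of 185 CPM against 0.108 CPM in the other cells but was present in only 16 of the 826 cells and was at 0 in AML 1. Late neutrophil genes were mixed. Of 18 in the list, 3 were at 0 and 3 had a median log2 ratio of 1 or more, namely Hp, Lcn2, a granule lipocalin (5.08 against 0.113 CPM), and Cybb, a subunit of the NADPH oxidase (11.2 against 2.14 CPM). The secondary granule genes Ltf, Camp and Ngp were at 0.0971, 0.503 and 0.766 CPM. Summed, the list stood at 124 to 268 CPM in cluster 4 and was higher than in the other cells in all 5 libraries, by 1.45 to 3.55 fold. Hp, itself a marker of the cluster, made much of that difference. It gave 52.6 of 162 CPM in PBS 1 and 161 of 268 CPM in AML 3. In the other cells it gave 0.813 of 112 CPM and 6.09 of 75.5 CPM.

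Of the lists for lineages other than the granulocyte, monocyte and basophil ones, the dendritic list was higher in cluster 4. Its summed level was 1.08 to 5.14 times that of the other cells over the 5 libraries, and 6 of its 13 genes had a median log2 ratio of 1 or more, such as the class II genes Cd74 (889 against 232 CPM) and H2-Aa (202 against 34.8 CPM). Cd74 was below the other cells in PBS 2 and AML 1. Summed markers of the erythroid, megakaryocyte, lymphoid, B and plasma, T and NK and stem lists were lower in all 5 libraries. The T cell gene Cd3e was found in 0 of 826 cells, which allows a share of up to 0.363% of cells with a UMI. Hbb-bs, a beta globin, was at 3.41 CPM against 80.5 CPM in the other cells. Immunoglobulin genes such as Igkc (median log2 ratio −7.14) and Jchain (−7.09) lay far below the other cells, and stem and lymphoid genes such as Mecom (−2.73), Dntt (−2.60), Hlf (−2.18) and Meis1 (−1.80) were lower too. The other cells are all remaining cells of the table and include small clusters. Among these are cluster 6 with 177 cells and cluster 7, where 96 of 102 cells carried the erythroid program scored further on. The part of such clusters in these levels was not tested. Of the genes of the sorted surface antigens, Kit was lower in all 5 libraries, with means of 47.3 against 91.0 CPM, and Ly6a, which encodes Sca1, was lower in 4 (81.4 against 149 CPM) and higher in AML 1 (132.5 against 113 CPM).

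The authors' own labels place the cluster mainly with the myeloid-biased multipotent progenitors. Of the 826 cells, 564 (68.3%) were labelled MPP3, 217 (26.3%) MPP2, 39 (4.72%) MPP4 and 6 (0.726%) HSC, whereas 11.3% of the other cells were labelled MPP3. The libraries differed, with MPP3 at 56.4%, 43.5% and 60.0% of the cluster in PBS 1, 2 and 3 and at 76.6% and 77.6% in AML 1 and 3, and MPP4 at 39.1% in PBS 2. By the authors' cell cycle call 181 cells (21.9%) were in G1, 355 (43.0%) in S and 290 (35.1%) in G2M, against 54.6%, 24.2% and 21.2% of the other cells. In AML 1 the other cells too were mostly outside G1, with 15.1% in G1 and 53.1% in G2M. The part of depth and of free RNA in these phase calls was not tested.

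To see how lineage programs mix within single cells, each cell was scored for short gene lists and counted as carrying a program when it held at least 2 UMIs of its genes in 2000. The neutrophil granule program (Elane, Ctsg, Prtn3, Ms4a3) was carried by 665 of 823 cells (80.8%), and the monocyte program (F13a1, Ly6c2, Ccr2, Csf1r, Ly86, Irf8, Ms4a6c, Klf4) by 452 (54.9%). The basophil program (Prss34, Mcpt8, Ms4a2, Fcer1a, Hdc) was carried by 35 (4.25%). In cluster 0 the same rule gave 40.3%, 1.40% and 0.0483% of cells, so the granule program as defined is not specific to cluster 4, and without Prtn3 its share was 1.01% in cluster 0 and 46.05% (379 cells) in cluster 4. With Prtn3, 353 cells (42.9%) carried both the granule and the monocyte program, the largest class in both AML libraries. A further 287, the largest class in all 3 PBS libraries, carried the granule program alone, 99 the monocyte program alone and 52 (6.32%) none of the 3. Without Prtn3, 273 cells (33.2%) carried the monocyte program alone, 182 the granule program alone, 179 (21.7%) both and 157 none of the 3, and this last class ranged from 26.2% to 56.5% of cells in PBS and was 5.19% and 10.03% in AML. Pooled counts weigh AML 3 most, with 379 of the 823 cells.

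Cells with the basophil program carried the granule program about as often as the whole cluster did and the monocyte program less often, given here as a description. Of the 35 cells with the basophil program, 28 also carried the granule program and 3 the monocyte program, beside 665 and 452 of all 823 cells, and all 3 of the latter carried the granule program too. The remaining 7 carried the basophil program alone. Of the 35, 10, 3 and 11 came from PBS 1, 2 and 3, where fewer cells carried the monocyte program than in AML. The pooled comparison thus mixes groups in unlike proportions, and no test was made. Programs of other lineages were rare, with 32 cells (3.89%) for the lymphoid, 20 (2.43%) for the stem, 5 for the megakaryocyte, 3 for the T and NK cell, 2 for the eosinophil and 1 for the erythroid program. Of the basophil cells, 0 were among the 5% of cells of their library with the highest doublet scores, a class that held 3.51% of cluster 4 and 5.08% of the other cells.

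**Figure D2:**
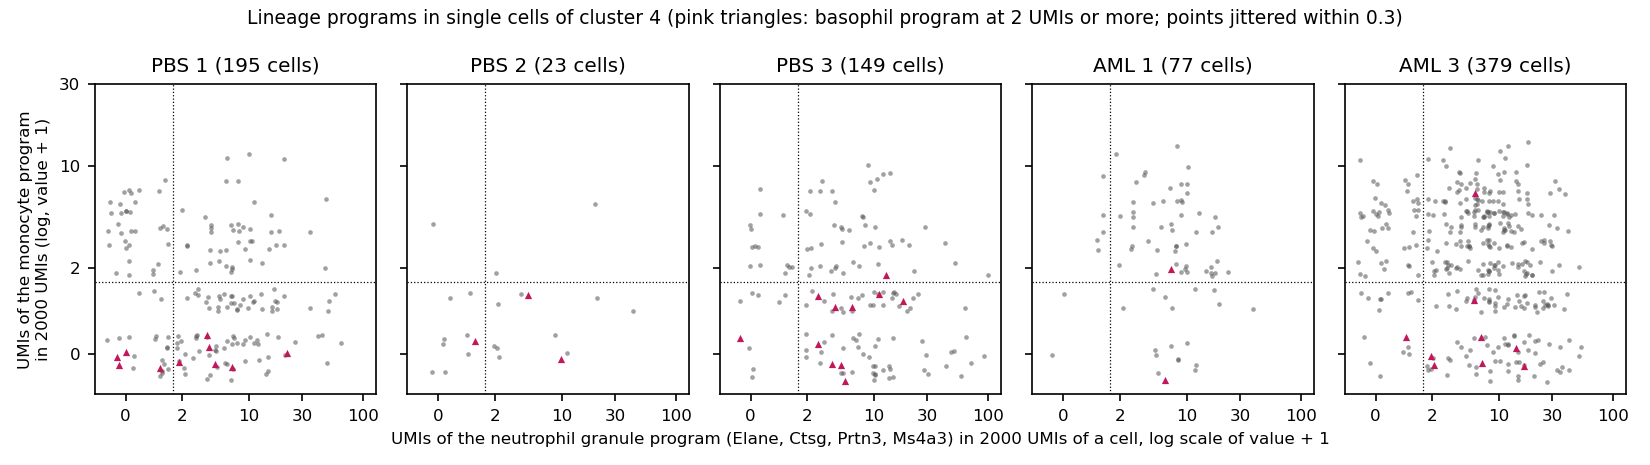
UMIs of the monocyte program against UMIs of the neutrophil granule program in each cluster 4 cell thinned to 2000 UMIs, by library, on log axes of the value + 1 with points jittered, and dotted lines just below the threshold of 2 UMIs. The upper right field, cells with both programs, holds 23.1%, 8.70% and 32.2% of cells in PBS 1, 2 and 3 and 67.5% and 54.4% in AML 1 and 3, and the basophil cells (pink triangles) lie mostly at low monocyte counts.

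The 5 kinds of cells also differed in genes outside the programs, given here as CPM of the cells summed over all libraries and as a description. Libraries entered these kinds unequally: 256 of the 350 cells with both programs and no basophil program came from AML, and 121 of the 287 with the granule program alone. Mpo was at 948 CPM in cells with the granule program alone, 619 CPM in cells with both, 766 CPM in basophil cells and 53.2 CPM in cells with the monocyte program alone, and in AML 1 it was higher in cells with both than in cells with the granule program alone (1688 and 1396 CPM). The class II invariant chain gene Cd74 was at 9380 CPM in cells with the monocyte program alone, 3251 CPM in cells with none of the 3 programs, 217 CPM with the granule program alone, 87.6 CPM with both and 17.5 CPM in basophil cells. Batf3, a transcription factor of conventional dendritic cells, was at 85.8 CPM in cells with the monocyte program alone and at 0.292 CPM in cells with both programs. The order was not that of every library: in the 5 monocyte-only cells of AML 1 Cd74 was at 0 CPM, below the cells with both programs (39.1 CPM) and with none of the 3 (620 CPM), in the 1 such cell of PBS 2 it was at 260.1 CPM against 401.5 CPM in cells with none, and Batf3 was at 0 in both. These levels came from a minority of cells: of the 99 monocyte-only cells, 39 held at least 10 UMIs of 4 class II genes in 2000, a threshold set after the values were seen, and had 32030 CPM of Cd74, compared with 202 CPM in the remaining 60. The program's own genes were uneven in the 99 cells. F13a1 was at 51.8 CPM and Ly6c2 at 56.2 CPM, against 237 and 153 CPM with both programs. Irf8 was at 563 CPM against 265 CPM and Ly86 at 667 CPM against 617 CPM. The name monocyte-only thus states the counting rule and not a cell type. Basophil cells stood out for Cpa3, a mast cell and basophil carboxypeptidase, at 748 CPM against 59.5 CPM with the granule program alone, and for the transcription factor gene Gata2 at 188 against 12.5 CPM, but in the 2 basophil cells of AML 1 both were at 0 CPM, against 38.2 and 0 CPM with the granule program alone. Cd63, a tetraspanin of granule membranes, was at 1142 CPM in basophil cells, 235 CPM with the granule program alone and 47.0 CPM with both, and within each of the 5 libraries it was lower with both (13.04 to 105 CPM) than with the granule program alone (134 to 294 CPM). The myeloid factor gene Cebpe was at 20.5 CPM with the granule program alone and 2.34 CPM with both, an order that AML 1 did not share (0 and 6.52 CPM). The pooled share of cells in G1 was 12.6% in cells with both programs, 22.7% with the granule program alone, 29.3% with the monocyte program alone, 40.0% in basophil cells and 51.9% in cells with none of the 3. In each library it was lower with both programs (0 to 15.6%) than with the granule program alone (17.4% to 33.3%).

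The share of cells with the monocyte program was higher in both AML libraries. Cells with the monocyte program made up 40.0%, 13.04% and 41.6% of cluster 4 in PBS 1, 2 and 3 and 74.0% and 66.5% in AML 1 and 3. The groups did not overlap, and the means were 31.6% ± 16.1 (SD, n = 3) and 70.3% ± 5.33 (SD, n = 2; exact two-sided permutation test, p = 0.1). With 3 against 2 libraries 0.1 is the smallest p that this test can give, so the design cannot reach 0.05. The same order was found outside cluster 4 at lower shares. In cluster 0 the program was carried by 0.664%, 0.291% and 0.730% of cells in PBS and by 7.85% and 2.91% in AML, in cluster 1 by at most 1.82% against 29.7% and 10.7%, in cluster 2 by at most 5.92% against 31.2% and 19.8%, and in cluster 3 by at most 1.40% against 21.8% and 10.3%. The part of free RNA in these shares was not tested. For cells with both programs the means were 21.3% ± 11.9 (SD, n = 3) in PBS and 60.9% ± 9.32 (SD, n = 2) in AML, again without overlap (exact permutation test, p = 0.1). Without Prtn3 in the granule program the shares with both were 10.8%, 4.35% and 14.1% in PBS and 36.4% and 28.5% in AML. Without thinning, which leaves the libraries at their own depths, the difference of the means was 20.6 percentage points for the monocyte program and 22.4 for both, compared with 38.7 and 39.6 at 2000 UMIs.

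The granule program overlapped between the groups with Prtn3 in it and did not overlap without. With Prtn3 it was carried by 71.3%, 56.5% and 84.6% of cells in PBS and by 90.9% and 83.6% in AML, with means of 70.8% ± 14.0 (SD, n = 3) and 87.3% ± 5.14 (SD, n = 2; exact permutation test, p = 0.3), and AML 3 lay within the range of PBS. Without Prtn3 the shares were 35.4%, 26.1% and 43.6% in PBS and 57.1% and 51.5% in AML, a difference of the means of 19.3 percentage points (exact permutation test, p = 0.2). The basophil program was in 10, 3 and 11 cells of PBS 1, 2 and 3 and in 2 and 9 cells of AML 1 and 3, or 5.13%, 13.04% and 7.38% against 2.60% and 2.38%. The groups did not overlap (8.52% ± 4.08, n = 3, and 2.49% ± 0.158, n = 2; exact permutation test, p = 0.2), and the difference of −6.03 percentage points was −3.77 without PBS 2, a library with 3 such cells. In all these shares the cells were chosen by a clustering of the same data, and program genes such as Elane and Ctsg lead the cluster.

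**Figure D3:**
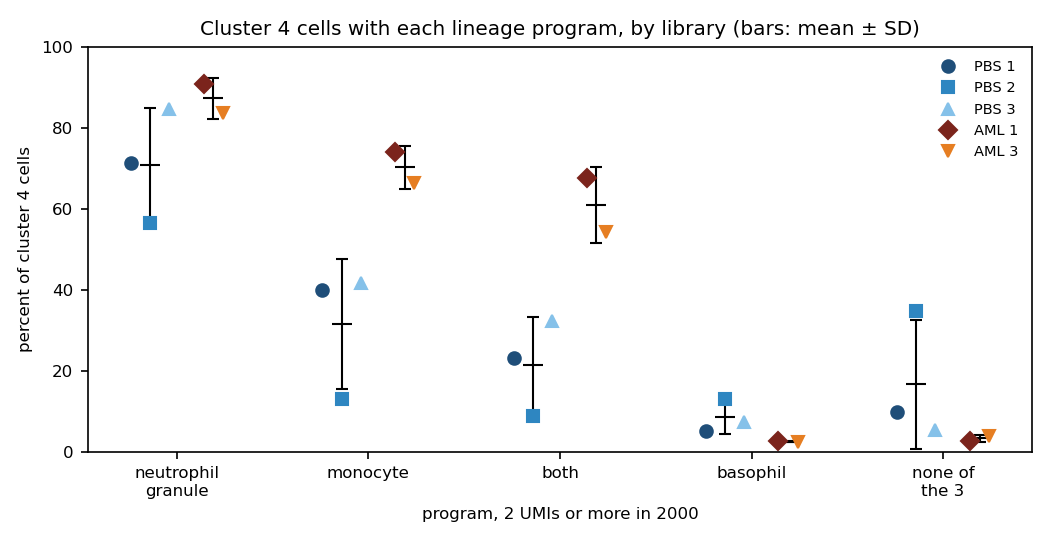
Percent of cluster 4 cells that carry each program at 2 UMIs or more in 2000, by library, with the mean and SD of the 3 PBS and the 2 AML libraries as bars. The monocyte program and the combination of granule and monocyte programs lie higher in both AML libraries than in any PBS library, while the granule program, here with Prtn3, overlaps.

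Summed over the cells of cluster 4, 8615 genes could be compared between AML and PBS with edgeR's quasi-likelihood test. At an adjusted p under 0.05, 20 genes were higher in AML (0.232% of the genes tested) and 25 lower (0.29%), 45 in all (0.522%). At an unadjusted p under 0.05 there were 460. Without respect to the test, the 2 groups did not overlap for 836 genes that were higher in AML (9.7%) and 963 that were lower (11.2%). The count of 45 depended on single libraries: it was 18 without PBS 3 and 101 without AML 3, where AML 1 is left alone and is assumed to vary as the PBS libraries do. The mice behind the libraries are not named in the labels, so the p-values refer to the spread between these libraries. The test also draws the variance of each gene strongly toward a value shared over genes (57.2 prior degrees of freedom). A gene can therefore be called although its 2 AML libraries differ widely.

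Ifi27l2a, an interferon-induced gene, and F13a1 rose. In CPM normalised by the trimmed mean of M values (TMM), Ifi27l2a stood at 55.4, 57.9 and 92.9 in PBS 1, 2 and 3 and at 270.4 and 222 in AML 1 and 3. Both AML libraries lay above all PBS libraries. The fitted log2 fold change was 1.80 with an SE of 0.33 (edgeR adjusted p = 0.00117), and the gene was found in 391 cells of both groups together. It passed the threshold in 15 of 16 alternative analyses. F13a1 stood at 60.8, 12.2 and 71.4 TMM-normalised CPM in PBS and at 201 and 178.5 in AML (1.80 ± 0.35, edgeR adjusted p = 0.00283). It passed in 13 of 15 alternatives and not with DESeq2 (adjusted p = 1.00). These were the only genes among the 20 higher ones to pass whichever library was left out.

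Isg15, a ubiquitin-like interferon product and a gene the study followed, stood at 88.8, 45.7 and 81.8 TMM-normalised CPM in PBS and at 314 and 146 in AML. The groups did not overlap (log2 fold change 1.52 ± 0.34, edgeR adjusted p = 0.0137), but AML 1 carried much of the difference, and without it the log2 fold change was 0.96 with an adjusted p of 0.369. The call was also lost without PBS 2 (0.0715) and without PBS 3 (0.103). Of the 30 genes in a list of interferon genes, 16 could be tested, 3 of them rose (Ifi27l2a, Isg15 and Rnf213, a large ubiquitin ligase, by 1.56, edgeR adjusted p = 0.0364) beside 0.232% of all genes, none fell, and the median log2 fold change was 0.37 compared with −0.01 over all genes tested. Of the 3, Ifi27l2a alone was called without AML 1, where the adjusted p of Rnf213 was 0.225, and Rnf213 was lost also without PBS 1 (0.165) and PBS 3 (0.249). With DESeq2 Ifi27l2a was called (adjusted p = 0.00674) and Isg15 (0.134) and Rnf213 (0.689) were not. The other study genes did not pass. Irf7, an interferon regulatory factor, had a log2 fold change of 0.35, Nfkb1, a subunit of NF-kB, one of 0.09 and the chemokine gene Cxcl10 one of 0.08 (each edgeR adjusted p = 1.00), and Cxcl10 rested on 23 cells. Irf8 stood at 141.6, 48.8 and 149 TMM-normalised CPM in PBS and at 253 and 256 in AML without overlap (1.10, edgeR adjusted p = 0.183). Cxcl9 and Nfkb2 were too low to be tested. Of 17 genes tested in a list of interferon gamma and antigen presentation genes and 10 in a list of NF-kB genes, 0 passed with edgeR.

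Ifi27l2a was also compared within the 3 kinds of cells that hold most of the cluster, as a description. In cells with the granule program alone it was at 25.9, 63.0 and 50.7 CPM in PBS and at 153 and 92.4 CPM in AML. With both programs it was at 99.3 and 111 CPM in PBS 1 and 3 and at 293 and 245 CPM in AML, and with the monocyte program alone at 123, 130 and 228 CPM against 689 and 448 CPM. PBS 2 held only 2 cells with both programs, with 0 UMIs, and 1 cell with the monocyte program alone. In these 3 kinds the AML values exceeded every PBS value. Isg15 overlapped in cells with the granule program alone, with 95.8, 35.0 and 55.4 CPM in PBS and 249 and 83.6 CPM in AML.

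Several of the larger rises were set by AML 1. Sgms2, a sphingomyelin synthase, stood at 10.7, 0 and 20.7 TMM-normalised CPM in PBS and at 209 and 27.3 in AML (2.78 ± 0.51, edgeR adjusted p = 0.00140), and its adjusted p was 0.462 without AML 1. Khsrp, an RNA-binding protein, had 209 in AML 1 against 29.4 to 47.1 in the other 4 libraries. Mapkapk2, a kinase downstream of p38, had 327 against 67.1 to 114, and Rpgrip1, a ciliary protein of photoreceptors, 541 against 85.4 to 197. The adjusted p of each of these 3 was 1.00 without AML 1. The same library was also high for these genes outside cluster 4: its other cells had 202 CPM of Khsrp, 161 CPM of Mapkapk2 and 513 CPM of Rpgrip1, against 33.4 to 43.9, 38.5 to 58.7 and 78.6 to 150 CPM in the other cells of the other libraries. Of the 20 higher calls 8 passed without AML 1, compared with 24 of the 25 lower ones. Tifab, an inhibitor of the TIFA adaptor, was among the 8, at 36.1, 36.6 and 25.0 TMM-normalised CPM in PBS and 105 and 76.8 in AML (1.43, adjusted p = 0.0329), and Apba1, an adaptor protein, was not (1.49, adjusted p = 0.0401, and 0.142 without AML 1). Tifab lost its call without PBS 1 (0.104) and without PBS 3 (0.306), and Khsrp, Mapkapk2, Rpgrip1 and Apba1 lost theirs also without PBS 3 (0.146 to 0.249). Without PBS 1 the calls of Khsrp (edgeR adjusted p = 0.108) and Mapkapk2 (0.104) were lost as well. Without PBS 2 those of Mapkapk2 (0.057), Rpgrip1 (0.0826) and Apba1 (0.133) were lost.

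**Figure D4:**
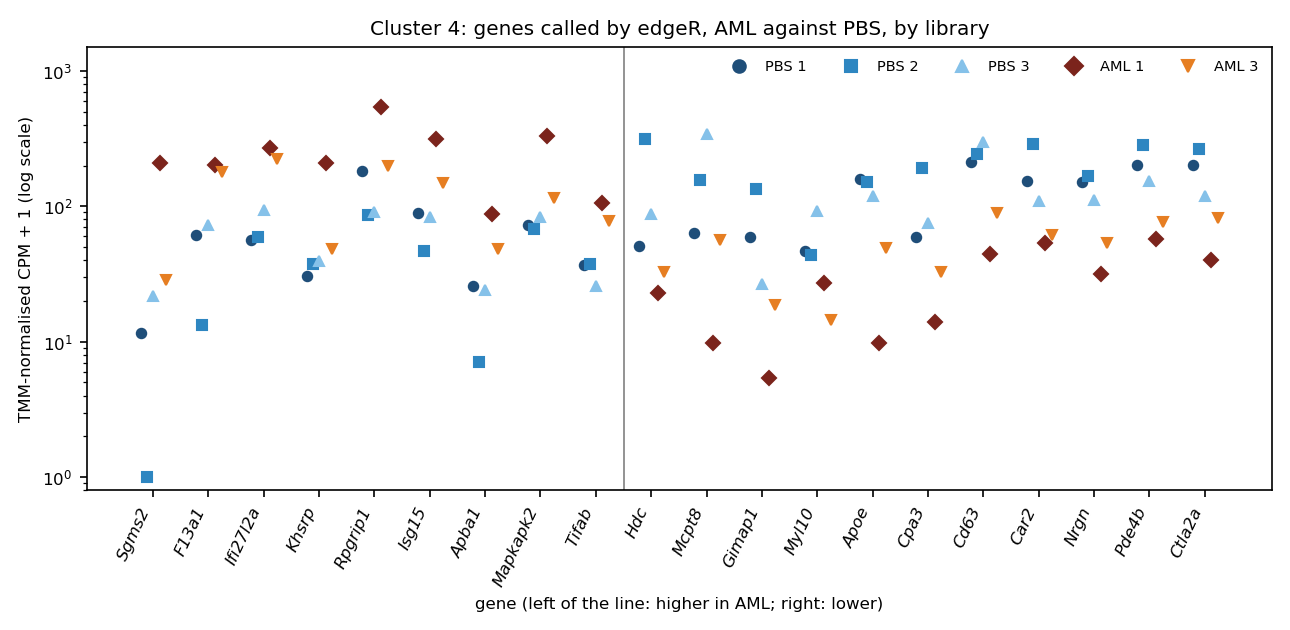
TMM-normalised CPM + 1 on a log scale in cluster 4 of each library for the 9 genes higher and the 11 genes lower in AML by the naming rule. AML 1 lies far above AML 3 for Sgms2, Khsrp, Rpgrip1 and Mapkapk2, whereas the AML libraries lie close together for F13a1 and Ifi27l2a, and below all PBS libraries for each gene on the right.

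Basophil and mast cell genes were the group that fell. Of 12 genes in the list 8 could be tested, and 6 were lower in AML with edgeR, beside 0.29% of all genes, with a median log2 fold change of −2.16. Members low in AML, such as Ms4a2 and Gzmb (0 and 0.976 TMM-normalised CPM in AML 1 and 3), met the count filter through PBS alone. The count and the median therefore lean toward falls. Ms4a2, the beta chain of the IgE receptor, stood at 40.1, 42.7 and 42.2 TMM-normalised CPM in PBS and at 0 and 4.88 in AML (log2 fold change −3.19 ± 0.45, adjusted p = 1.29e-05). Hdc, which makes histamine, stood at 50.1, 314 and 86.9 in PBS and at 21.8 and 31.9 in AML (−2.19 ± 0.46, adjusted p = 0.00706), and Mcpt8, a basophil protease, at 62.1, 155.5 and 343 against 8.72 and 55.4 (−2.13 ± 0.44, adjusted p = 0.00645). All PBS libraries lay above both AML libraries for these 3 genes, although the PBS libraries spread widely for Hdc and Mcpt8. Cpa3 (−1.84, adjusted p = 0.0137) and the protease gene Gzmb (−4.41, adjusted p = 5.57e-05, 66 UMIs in 6 cells) fell too. Leaving out a library ended the call of Cpa3 without PBS 2 (0.133) and PBS 3 (0.0601), of Hdc without PBS 2 (0.211), of Mcpt8 without PBS 3 (0.523) and of Gzmb without PBS 3 (0.0534) and AML 3 (0.135). Prss34, at 42.7, 342 and 510 TMM-normalised CPM in PBS and 0 and 91.5 in AML, was called (−2.23, edgeR adjusted p = 0.0181) although AML 3 lay above PBS 1, and the call was lost without PBS 3 (adjusted p = 0.694). With DESeq2 2 of the 6 were called, Ms4a2 (adjusted p = 0.00674) and Gzmb (0.0308), and the adjusted p of each of the other 4 was 1.00. The 2 genes not called by edgeR were Fcer1a, the alpha chain of the IgE receptor, at −1.72 (adjusted p = 0.137), and Cd200r3.

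Much of the RNA of these genes lay in few cells. The 10 highest cells held 92.8% of the Prss34 UMIs and 76.7% of the Mcpt8 UMIs in the cluster. When cells with the basophil program were left out, the log2 fold change of Cpa3, which is no gene of that program, was −1.0 (edgeR adjusted p = 0.699). In sums over the cluster, fewer cells of a kind, more cells of other kinds and less RNA per cell cannot be told apart. The 10, 3 and 11 basophil cells of PBS 1, 2 and 3 stood beside 6838, 934 and 4398 cells of the whole table. The 2 and 9 of AML 1 and 3 stood beside 693 and 3959. A lower level within the cluster is thus not a count of fewer basophil cells among all sorted cells.

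Other falls were called also without the basophil cells. Apoe, apolipoprotein E, stood at 159, 149 and 118 TMM-normalised CPM in PBS and at 8.72 and 48.0 in AML (−1.89 ± 0.37, edgeR adjusted p = 0.00342). Cd63 stood at 213, 244 and 299 in PBS and at 43.6 and 88.8 in AML (−1.77 ± 0.35, adjusted p = 0.00456). Without the basophil cells both were still lower, by log2 fold changes of −1.58 (adjusted p = 0.0181) and −1.47 (0.0251). The call of Cd63 was lost without PBS 3 (0.0590). In cells with the granule program alone Apoe was at 176, 140 and 120 CPM in PBS and 38.2 and 95.1 CPM in AML, and Cd63 at 260.1, 210.1 and 294 against 134 and 195 CPM, so that the groups did not overlap within that kind of cell for either gene. Apoe passed the threshold whichever library was left out, as did Ms4a2 and Gimap1, a GTPase of lymphocytes (−2.06, adjusted p = 0.0134). With DESeq2 Apoe was called (adjusted p = 0.0350), as was Ms4a2, but Gimap1 was not. Gimap1 passed in 9 of 16 alternatives and Apoe in 14 of 16. The remaining falls of the naming rule were Myl10, a myosin light chain (−2.00), Car2, a carbonic anhydrase of red cells (−1.60), Nrgn, neurogranin (−1.60), Pde4b, a cAMP phosphodiesterase (−1.58), and Ctla2a, a cysteine protease inhibitor (−1.49), with edgeR adjusted p from 0.00826 to 0.0301, and the call of Ctla2a was lost without AML 1 (0.212). Each of these 5 lost its call with at least 1 library left out, Myl10 without AML 3 (0.369) and PBS 3 (0.213), Car2 without AML 3 (0.0669) and PBS 2 (0.199), Nrgn without PBS 1 (0.0652), Pde4b without PBS 2 (0.0610) and Ctla2a also without PBS 1 (0.0732) and PBS 2 (0.122).

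Car2, Myl10, Nrgn, Ctla2a and Gimap1 were genes that stood higher in the other cells of the table than in cluster 4. Car2 was at 777, 711 and 622 CPM in the other cells of PBS and at 275 and 453 CPM in those of AML, against 163, 278 and 96.9 CPM and 53.0 and 60.0 CPM in cluster 4. Of 5 stem cell genes tested in cluster 4 none passed with edgeR, and all 5 had groups that did not overlap and were lower in AML (background 11.2%), with a median log2 fold change of −0.83. For the 13 immediate early genes tested the values were all negative, from −1.42 for Ier3 (adjusted p = 0.0656) to −0.036 for Fosb, where 4204 of all 8615 genes had positive values. For 5 of the 13 both AML libraries lay below all PBS libraries (background 11.2%), and 0 passed with edgeR. The part that cells of other kinds had in these differences was not tested.

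Of the 6 markers, F13a1 and Prss34 passed the test within the cluster and Elane, Ctsg, Ly6c2 and Hp did not. Elane stood at 810.0, 857 and 2186 TMM-normalised CPM in PBS and at 942 and 933 in AML (log2 fold change −0.46, edgeR adjusted p = 1.00), and Ctsg at 526, 768.5 and 656 against 375 and 639 (−0.33, adjusted p = 1.00). Of the 10 primary granule genes tested 0 passed, and their median log2 fold change was −0.21. Of 13 monocyte genes tested F13a1 passed (background 0.232%), 11 had positive values, as did 4204 of all 8615 genes, 7 lay higher in both AML libraries than in any PBS library (background 9.7%), and the median was 0.60, with 1.38 for Csf1r (adjusted p = 0.158), 1.24 for Ly86 (0.0881) and 0.89 for Ly6c2 (0.507). Hp stood at 48.7, 64.0 and 62.0 in PBS and at 56.7 and 161 in AML (1.10, adjusted p = 0.187), a difference that lay in AML 3. Of 3 late neutrophil genes tested Cybb, found in 80 cells, was the one called (background 0.232%), with a log2 fold change of 2.60 (edgeR adjusted p = 0.00706). It stood at 3.34, 0 and 5.16 TMM-normalised CPM in PBS and at 26.2 and 21.5 in AML, and met the count filter through AML alone. The call was lost without AML 3, without PBS 1 (edgeR adjusted p = 0.0644) and with DESeq2 (adjusted p = 0.590).

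Whether AML changed a gene by another amount in cluster 4 than in the other cells of the same libraries was tested by an interaction term in edgeR, with a term for each library. Of 11268 genes tested 38 passed (0.337%), and 505 had an unadjusted p under 0.05. In 34 of them the log2 fold change was lower in cluster 4 and in 4 it was higher. The count was 23 without PBS 1, 17 without PBS 3, 10 in cells thinned to 2000 UMIs and 1 (Ctsg) with limma-voom and the library as a block. Of the 20 leading genes of the cluster 10 were among the 38: Elane, F13a1, Ctsg, Ly86, Mpo, Ms4a6c, Lgals1, Ap3s1, Irf8 and H2-Eb1. These genes mark the cluster that split the cells, so the split itself bounds their levels on both sides. Their p-values cannot be read apart from it.

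Elane gave the smallest p. In cluster 4 its log2 fold change was −0.46, whereas in the other cells, at 2.44, 1.19 and 8.39 CPM in PBS and 46.5 and 16.2 CPM in AML, it was 2.69, which did not pass there (edgeR adjusted p = 0.156), and the difference was −3.13 ± 0.25 (edgeR adjusted p = 3.87e-26). For Ctsg the other cells had 26.9, 24.6 and 37.4 CPM in PBS and 111 and 112 CPM in AML, a log2 fold change of 1.86 (edgeR adjusted p = 0.0115) against −0.33 in cluster 4 (difference −2.21 ± 0.22, adjusted p = 6.56e-18). Ly86 rose in the other cells by 2.92 on the log2 scale (edgeR adjusted p = 0.00494), with a value of 1.24 in cluster 4 (difference −1.66 ± 0.22, adjusted p = 3.34e-10). These 3 granule and monocyte genes had larger fold changes outside the cluster, at levels far below those within it, and the part of free RNA in the outside levels was not tested. F13a1 followed the same order, with 1.80 in cluster 4 and 3.28 in the other cells (difference −1.33, edgeR adjusted p = 0.00587). Mcpt8 differed in sign, at −2.13 in cluster 4 and 1.70 in the other cells (edgeR adjusted p = 0.255), where its level was 1.19 to 3.03 CPM in PBS and 9.31 and 5.58 CPM in AML (difference −3.21 ± 0.29, adjusted p = 7.18e-22). Pf4, platelet factor 4, was the main gene with the larger value in cluster 4 (3.12 against −0.20, difference 3.62 ± 0.33), but 87.3% of its UMIs in the cluster came from 1 cell of AML 3. None of the interferon genes called within cluster 4 was among the 38.

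**Figure D5:**
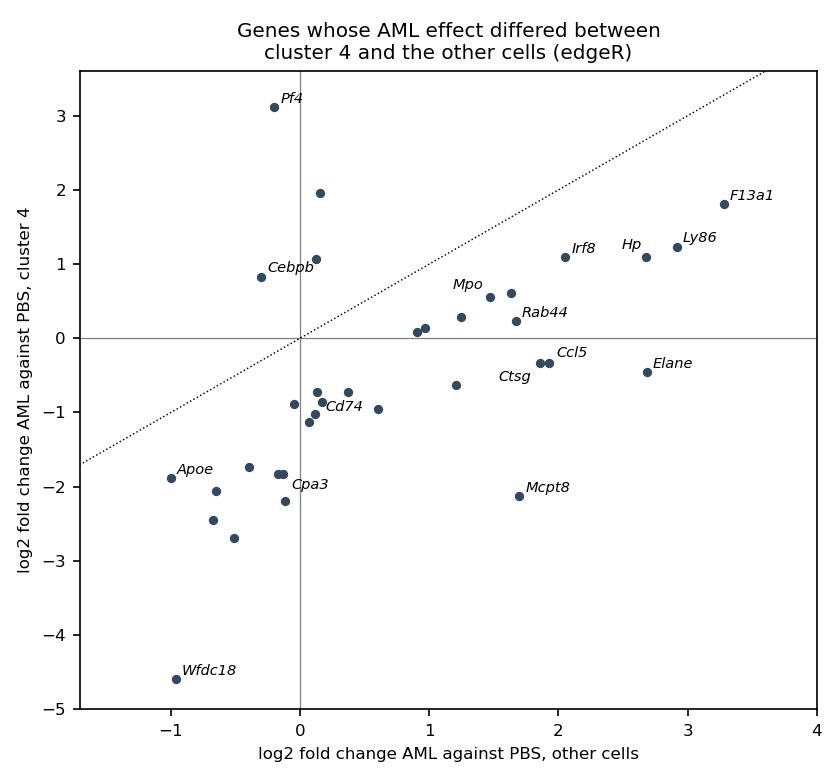
Log2 fold change of AML against PBS in cluster 4 against that in the other cells, for the 35 of the 38 genes with a differing effect that could be tested in cluster 4 alone, with a dotted line where both are equal. Most genes lie below the line, Elane at 2.69 in the other cells and −0.46 in cluster 4, and Pf4 lies furthest above it.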

How the data were processed

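Bone marrow HSPCs of 6 libraries were profiled, 3 from PBS and 3 from AML mice. The authors made UMI counts per gene and barcode with Cell Ranger 7.0.1 (GRCm38/mm10 per the processing notes), and these counts were deposited unnormalised for 32285 features. A deposited cell table, made by the authors with Seurat 4.3.0 under R 4.2.2, gives for 16822 cells the library, cluster, cell cycle phase and class, together with counts of UMIs and genes, the percent of mitochondrial and ribosomal UMIs, and module and cell cycle scores. In all, 11 of its columns were not used. No source used here gives the cell filters and clustering settings, and doublets were not removed here.

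UMIs of cluster 4 cells, and of all other cells of the table, were summed per library, since the library and not the cell is the replicate. Cluster 4 held 226456 (AML 1) to 4118505 UMIs (AML 3) per library. PBS and AML sums were compared with the quasi-likelihood test of edgeR 4.0.16 (TMM normalisation, low counts filtered by group, Benjamini-Hochberg adjustment over all genes tested, threshold 0.05) in R 4.3.3, and the interaction of treatment with cell set was tested on the sums of cluster 4 and of the other cells with library terms. The scripts were tested on simulated data. Shares of cells were taken after thinning to 2000 UMIs and compared by an exact permutation test (scipy 1.17.1). Doublet scores came from Scrublet in scanpy 1.11.5, with the top 5% per library as the class left out in an alternative. Alternatives used DESeq2 1.42.0, limma 3.58.1, other normalisation, filters, cells or libraries.

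Genes were named by a rule: up to 12 rises and 12 falls with the largest log2 fold change among called genes with a mean log2 CPM of at least 5 and groups that do not overlap, the 6 cluster markers, the genes the study followed, members of gene lists with called ones first, the 20 leading genes, and the 5 smallest p-values of the interaction. The cluster, the gene lists and the programs were chosen with earlier results of these data known. One gene of the study is not reported here. The replicate numbers shared by PBS and AML do not mark shared animals or batches in the labels. RefSeq promoters of GRCm38.p6 were matched by symbol.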

Additional observations from a re-analysis of the deposited data

Results flagged for a closer look

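In 5 genes the effect of AML differed between cluster 4 and the other cells of the same libraries by the interaction test in edgeR, and these had the smallest p-values among abundant genes. As a log2 fold change in cluster 4 minus that in the other cells, the difference was −3.13 for Elane, 3.62 for Pf4, −3.21 for Mcpt8, −2.21 for Ctsg and −1.66 for Ly86. Elane, Ctsg and Ly86 are leading genes of the cluster that split the cells, so their differences cannot be read apart from that split. Ctsg kept its call in all 10 alternative analyses. Elane, Mcpt8 and Ly86 kept theirs in 9 of 10. Pf4 kept its call in 7 of 10, and without AML 3, which held 1 cell with 452 UMIs of this gene, its difference was −1.09. With 3 PBS and 2 AML libraries the groups are too small for a search for outlying libraries.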

How the results depend on the processing

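Of the 73 alternative values of the main counts and shares, 60 stayed within 1.5 times the reported count or within the spread of the libraries and 13 moved. The 45 genes that differed between AML and PBS in cluster 4 became 7 with DESeq2, 16 with limma-voom, 7 with cells thinned to 2000 UMIs, 20 with an equal number of cells per library and 0 by edgeR in G1 cells only, where 76 genes had an unadjusted p under 0.05. Of the 45, 7, 14, 6 and 11 were among the calls of the first 4 of these. The replicate block gave 23, of which 20 were among the 45, but only the numbers 1 and 3 are shared between the groups, and same-numbered libraries did not deviate together (correlations of −0.00807 for number 1 and −0.0609 for number 3), so the numbers do not pair the libraries. Leaving out each library in turn gave 18 to 101 genes. The 38 genes with a differing effect became 1 with limma-voom and the library as a block (314 at an unadjusted p under 0.05) and 10 in thinned cells, and 17 to 39 with a library left out. The difference in the share of cells with both the granule and the monocyte program was 22.7 percentage points without Prtn3, a choice made after seeing the data, and 33.0 to 46.2 with a library left out. The sign of the log2 fold change turned for Isg15 in G1 cells (−0.19), for Nfkb1 in thinned cells (−0.029) and without AML 3 (−0.13, and up to 0.17 with another library left out), for Irf7 in thinned cells (−0.17) and in G1 cells (−0.85), for Hp without AML 3 (−0.042), for Elane in thinned cells (0.046), in G1 cells (0.087) and without PBS 3 (0.18, and down to −0.69 with another library left out), for Ctsg in G1 cells (0.20) and without both PBS 2 and AML 1 (0.12, also chosen after seeing the data), and for the effect difference of Pf4 without AML 3 (−1.09, and up to 4.11 with another left out). Cxcl10 turned with DESeq2 (−0.45), with the replicate block (−1.05), without the top doublet scores (−0.12), without basophil cells (−0.028), without PBS 2 (−0.13) and without AML 3 (−5.85, and up to 0.30 with another left out). The cause of these changes was not tested. Low depth limits the results in AML 1, with a median of 2387 UMIs per cluster 4 cell. In PBS 2, with 23 cells, the limit is the number of cells.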

Other observations

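A small set of cluster 4 cells carried class II antigen presentation genes. Cells with at least 10 UMIs of Cd74, H2-Aa, H2-Ab1 and H2-Eb1 in 2000, a threshold chosen after the values were seen, numbered 52 of 823 (6.32%) and held 96.2% of the cluster's class II UMIs. They came from PBS 1 (18 cells), PBS 2 (1), PBS 3 (9) and AML 3 (24), and none came from AML 1. Of the 52, 41 carried the monocyte program, 6 the granule program, 0 the basophil program and 7 none of the 3. Genes chosen after their values were seen were also high in them: Plbd1 at 534 CPM against 0.709 CPM in the remaining cluster 4 cells, Aif1, a cytoskeletal protein of macrophages, at 399 against 10.4 CPM, and the dendritic transcription factor gene Batf3 at 217 against 1.28 CPM. Cst3 was at 16090 against 1021 CPM. In cluster 0 the same threshold was met by 0.563% of cells, and in the small cluster 8 by 9 of 107 cells (8.41%). Of the 52 cells 5.77% had doublet scores in the top 5% of their library.

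The eosinophil granule gene Prg2 lay almost wholly in 2 cells, with 194 UMIs in 1 cell of PBS 1 and 148 UMIs in 1 cell of AML 3 of 347 UMIs in the cluster.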
